A study of Mus musculus with 15 samples.

Results

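Genes of sperm acrosome formation were followed in mouse testis. They were 7, namely Dpy19l2, Spata16, Gopc, Pick1, Agfg1, Spaca1 and Csnk2a2. The set was chosen by name, as genes linked to round-headed sperm or a malformed acrosome, and makes up 7 of the 23510 rows of the expression table. RNA was sequenced from 15 testis libraries of outbred ICR mice in 5 groups of 3. The MNC mice received a lentivirus with a control shRNA, and the M1, M3 and M5 mice received lentivirus with shRNAs against the muscarinic acetylcholine receptor of that name. The virus was injected into the testes at 5 weeks of age, as a mix of 3 shRNAs for each receptor, and testes were taken 10 days later. Con is labelled only as a control of the same strain, and what was done to these mice is not given in the sources used here. The injected virus is not aimed at one cell type, so each library is whole testis tissue in which an unknown share of cells carried an shRNA. The labels do not say that replicates are separate animals, so the p-values measure the spread between these libraries, which may be partly technical.

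The acrosome is a cap of enzymes and membrane over the front of the sperm nucleus. In round spermatids, vesicles leave the Golgi apparatus, dock at the nuclear envelope and fuse into one sac, which then spreads over the nucleus while it condenses. When vesicles fail to arrive, to fuse or to stay anchored, the sperm head stays round and lacks its cap, a form of male infertility called globozoospermia. Gopc and Pick1 encode PDZ proteins that act in vesicle traffic from the Golgi to the acrosome, and Agfg1 encodes a protein needed for the vesicles to fuse. Spata16 encodes a protein of the Golgi and of the vesicles that build the acrosome. Dpy19l2 encodes a protein of the inner nuclear membrane that holds the acrosome to the nucleus, Spaca1 encodes an acrosomal membrane protein, and Csnk2a2 encodes a catalytic subunit of the kinase CK2.

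The members lie on 7 chromosomes of the mouse build mm10 (GRCm38), with gene bounds from GENCODE M21. Gopc lies at chr10:52335850-52382124 on the minus strand, Pick1 at chr15:79229173-79249484 on the plus strand, and Agfg1 at chr1:82839483-82901182 on the plus strand. Spata16 lies at chr3:26637620-26983212 on the plus strand and Dpy19l2 at chr9:24557047-24696293 on the minus strand. Spaca1 lies at chr4:34024874-34050191 and Csnk2a2 at chr8:95446096-95490039, both on the minus strand. FPKM values are summed over each gene, so no exon or UTR was resolved. Pick1 shares 993 of the 2005 stretches of 50 bases in its longest coding transcript (49.5%) with the overlapping gene model Gm49486, so reads of the 2 models cannot be told apart there and the Pick1 values are uncertain in that sense. For Gopc 0.89% of such stretches were shared with Gm26741, and for the other 5 members none was found in another gene. Dpy19l2 is overlapped on the opposite strand by Cypt4, and the strandedness of the libraries is not stated. The stretches were searched on both strands, and the longest coding transcript of Dpy19l2 shared none with Cypt4. Other transcripts of Dpy19l2 were not searched.

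The promoters of Pick1, Dpy19l2 and Spaca1 are shown because Pick1 and Dpy19l2 are the members that passed a test below and Spaca1 is the member with the highest level. Each is the RefSeq (GRCm38.p6) sequence of the 250 bases before a start of the gene, read 5′ to 3′ on the strand of the gene. RefSeq starts can differ from the GENCODE bounds given above, and the Spaca1 window lies partly inside them. Capitals mark the matches to 4 motifs that were searched on both strands, which are the X-box palindrome in Pick1, the CRE core TGACG in Spaca1 and the E-box CACGTG in Dpy19l2.
Pick1, chr15:79228923-79229172, plus strand: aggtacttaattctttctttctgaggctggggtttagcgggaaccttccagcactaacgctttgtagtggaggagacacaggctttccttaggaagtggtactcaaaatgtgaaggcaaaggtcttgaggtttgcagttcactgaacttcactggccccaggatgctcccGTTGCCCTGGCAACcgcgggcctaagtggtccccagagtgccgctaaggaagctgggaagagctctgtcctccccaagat
Spaca1, chr4:34050066-34050315, minus strand: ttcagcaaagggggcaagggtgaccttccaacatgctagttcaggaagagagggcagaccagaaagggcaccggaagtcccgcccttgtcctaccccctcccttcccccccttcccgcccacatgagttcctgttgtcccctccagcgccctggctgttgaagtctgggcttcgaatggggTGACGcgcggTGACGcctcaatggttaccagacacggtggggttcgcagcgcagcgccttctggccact
Dpy19l2, chr9:24696294-24696543, minus strand: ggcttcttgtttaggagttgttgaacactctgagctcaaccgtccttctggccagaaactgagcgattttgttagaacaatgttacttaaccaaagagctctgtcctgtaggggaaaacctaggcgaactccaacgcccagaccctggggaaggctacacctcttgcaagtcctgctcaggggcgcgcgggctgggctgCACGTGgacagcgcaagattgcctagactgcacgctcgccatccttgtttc

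The X-box palindrome is GTTGCC, any 2 bases and GGCAAC, the letters that RFX transcription factors bind. In Pick1 it spans 80 to 67 bases before the start shown, and the window of another Pick1 start lacks it. In this exact form it was rare, in 26 of 27025 genes with a promoter window (0.0962%), and no other member had it. Looser forms were not searched, so this share cannot be compared with that of the shorter CRE core. The CRE core is the shorter form of the palindrome TGACGTCA that CREB and CREM factors bind. In Spaca1 it occurred at 69 to 65 and at 59 to 55 bases before the RefSeq start shown, inside the GENCODE bounds of the gene. It also lay on the reverse strand of the Gopc window, 161 to 157 bases before the start. This core was common, in 19.8% of genes, and the full TGACGTCA, found in 1.77% of genes, was in no member. The E-box CACGTG, found in 6.86% of genes, occurred at 51 to 46 bases before the start of Dpy19l2 and at 71 to 66 and 45 to 40 bases before that of Spata16. The full CRE contains the core on both strands, and the windows of one gene can overlap. The motifs were chosen with earlier results in view, and a match describes letters, not a bound site.

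All 7 members passed the filter on low values, a mean of 1 FPKM (fragments scaled for gene length and library total) or more over the 15 libraries, as did 14514 rows in all. Absolute sequencing depth is unknown, and relative depth, read from the steps between low values, ranged from 0.981 to 1.014. The transcripts of the targeted receptors were too low to check the labels, with Chrm5 at 0.37, 0.22 and 0.37 FPKM in M5 and 0.43, 0.23 and 0.43 FPKM in MNC. Chrm1 was between 0.09 and 0.14 FPKM in M1 and between 0.1 and 0.11 in MNC, and Chrm3 was between 0.04 and 0.11 FPKM in M3 and between 0.01 and 0.05 in MNC. Germ cell markers of the testis were abundant. The summed FPKM of 10 markers of elongating spermatids was 11935 to 22890 in Con and 24248 to 30570 in MNC. It was 29229 to 31059 in M1, 25813 to 31244 in M3 and 23678 to 32946 in M5. The sum of 8 spermatocyte markers was 342 to 475 over all groups. One library stood apart in its other cell types. M5 replicate 3 had the highest summed FPKM of Sertoli (684), Leydig (3159), macrophage (42.4) and red blood cell markers (491) of the 15 libraries.

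The 7 members differed widely in level and held a nearly fixed order. On the FPKM scale, which is corrected for gene length, Spaca1 (173 ± 13.7, SD, n = 15) and Spata16 (157 ± 8.03) were highest, followed by Dpy19l2 (79 ± 5.97) and Csnk2a2 (68.3 ± 3.79). Agfg1 (41 ± 1.86), Pick1 (29.8 ± 3.18) and Gopc (9.29 ± 0.914) were lower. Each pair of members kept its order in 15 of 15 libraries, except that Spaca1 was above Spata16 in 14 of 15. The exception was Con replicate 3, where Spaca1 was at 139.95 FPKM and Spata16 at 160.21. Levels varied little from library to library. The coefficient of variation over the 15 libraries ran from 4.53% for Agfg1 to 10.7% for Pick1. By this measure the members stood between percentiles 0.868 and 26.2 of the genes tested. Their mean levels stood between percentiles 51.3 and 96.5 of the same genes, and spread was not compared with genes of like level.

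**Figure D1:**
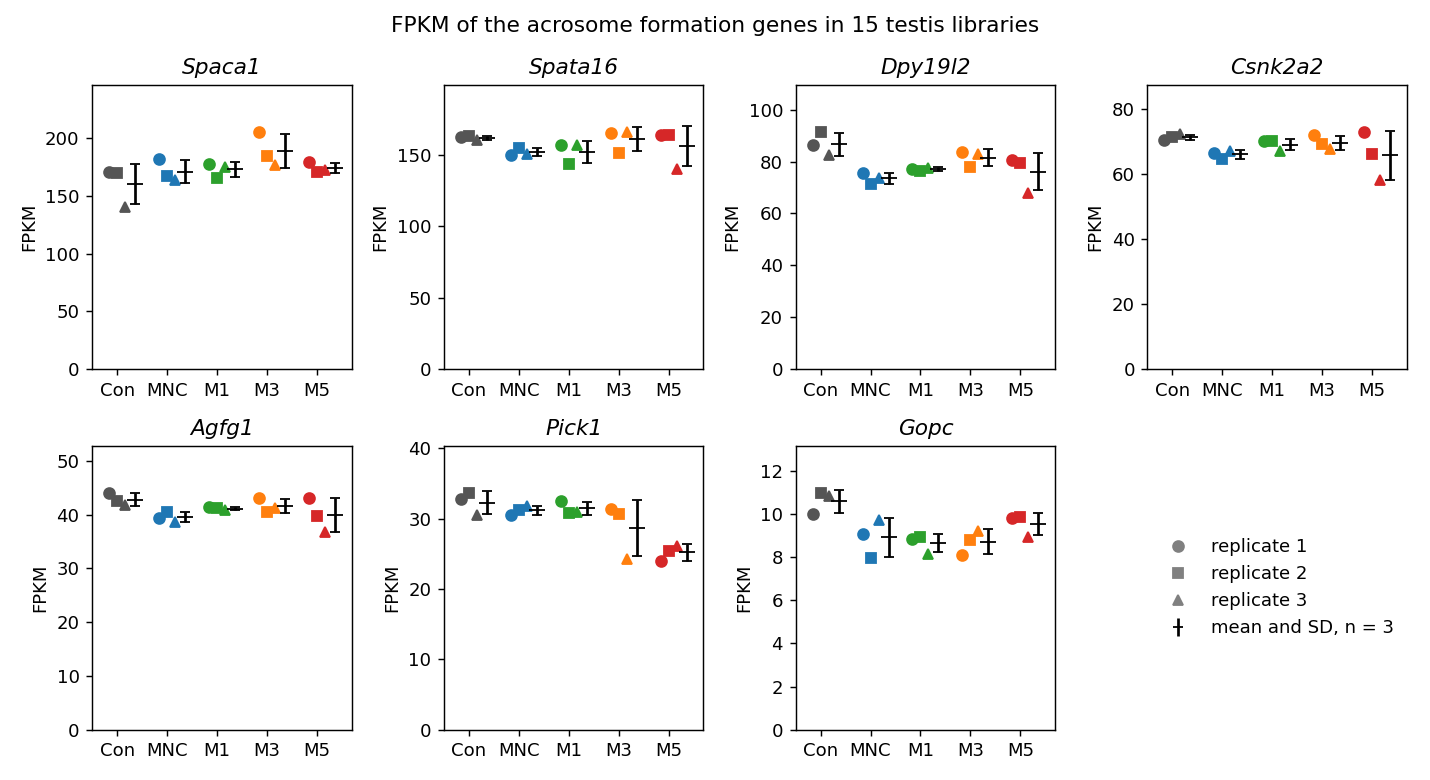
FPKM of the 7 member genes (y axes, one panel a gene) in each of the 15 libraries, by group on the x axis. Points are libraries and bars are the group mean ± SD (n = 3). Pick1 lies between 23.92 and 26.19 FPKM in M5 and between 30.56 and 31.82 in MNC, while the M5 points of Dpy19l2, Spata16, Agfg1 and Csnk2a2 spread because replicate 3 is low.

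Among the 7 members, Pick1 was the one that separated M5 from MNC. It was at 30.56, 31.18 and 31.82 FPKM in MNC and at 23.92, 25.42 and 26.19 FPKM in M5. The 2 groups did not overlap, and the highest M5 library was below the lowest MNC library. M1 stayed in the range of the controls, at 32.53, 30.86 and 31.03 FPKM. In Con the values were 32.77, 33.66 and 30.56 FPKM. M3 was split, with 31.34 and 30.68 FPKM in replicates 1 and 2 and 24.22 in replicate 3, which lay inside the M5 range. The other 11 libraries outside M5 lay between 30.56 and 33.66 FPKM.

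Gopc, whose product is a partner of PICK1 at the Golgi, had the lowest level of the 7 members. Its values were 9.99, 10.98 and 10.84 FPKM in Con and 9.06, 7.97 and 9.73 FPKM in MNC. Every Con library was above every other library. M1 was at 8.86, 8.93 and 8.17 FPKM, M3 at 8.09, 8.81 and 9.24, and M5 at 9.81, 9.86 and 8.94. These 3 groups overlapped MNC.

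Agfg1, needed for fusion of the vesicles, had the smallest spread of the members. It was at 44.02, 42.61 and 41.79 FPKM in Con and at 39.32, 40.57 and 38.7 FPKM in MNC, and those groups did not overlap. M1 lay in a narrow band of 41.38, 41.14 and 40.87 FPKM. The M3 libraries were at 43.06, 40.56 and 41.31 FPKM. In M5 they were at 43.04, 39.83 and 36.83 FPKM, and replicate 3 was the lowest of the 15 libraries.

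Spata16, the Golgi and vesicle protein, had MNC values below those of Con. Con was at 162.17, 162.85 and 160.21 FPKM and MNC at 149.9, 154.88 and 150.54 FPKM, again without overlap. M1 was at 156.79, 143.78 and 156.83 FPKM, and M3 at 164.99, 151.19 and 165.8 FPKM. M5 held 2 libraries above every Con library, at 164.11 and 163.96 FPKM, and the lowest of all libraries, replicate 3, at 139.99 FPKM.

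Dpy19l2, the nuclear anchor, was highest in Con, at 86.6, 91.36 and 82.49 FPKM. In MNC it was at 75.78, 71.51 and 73.58 FPKM, and the groups did not overlap. M1 was at 77.36, 76.47 and 77.65 FPKM, with each library above those of MNC. M3 was at 83.6, 77.79 and 83.15 FPKM, also above MNC in every library. M5 was at 80.84, 79.62 and 67.81 FPKM, and its replicate 3 was again the lowest of the 15. The overlapping gene Cypt4 moved the other way between the controls, at 367.03 to 372.62 FPKM in Con and 400.11 to 436.92 FPKM in MNC. Its part in the Dpy19l2 values was not tested.

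Spaca1, the acrosomal membrane protein, was the 1 member with its highest group mean in M3, at 189 ± 14.6 FPKM (SD, n = 3). It was at 170.33, 169.48 and 139.95 FPKM in Con and at 182.08, 166.87 and 163.35 FPKM in MNC, which overlapped. M1 was at 177.42, 165.58 and 174.74 FPKM, M3 at 205.15, 184.21 and 176.99, and M5 at 178.98, 170.29 and 172.33. No group lay apart from MNC.

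Csnk2a2, the kinase subunit, was at 70.57, 71.23 and 72.24 FPKM in Con and at 66.58, 64.49 and 67 FPKM in MNC, without overlap. M1 was at 70.02, 70 and 67.03 FPKM and M3 at 71.92, 69.36 and 67.61 FPKM. Both lay wholly above MNC. M5 spanned the widest range, at 72.84, 66.14 and 58.02 FPKM, and held both the highest and the lowest of the 15 libraries.

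The groups can be ordered by their mean level, and most neighbours in that order lay within their spread. For Pick1 the order was Con (32.3 ± 1.6 FPKM, SD, n = 3), M1 (31.5 ± 0.919), MNC (31.2 ± 0.63), M3 (28.7 ± 3.93) and M5 (25.2 ± 1.15), where every pair of neighbours overlapped. For Dpy19l2 it was Con (86.8 ± 4.44), M3 (81.5 ± 3.23), M1 (77.2 ± 0.615), M5 (76.1 ± 7.2) and MNC (73.6 ± 2.14), and there M3 and M1 did not overlap. Con had the highest mean for 6 of the 7 members, all but Spaca1, where it had the lowest.

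The comparison of M5 with MNC asks what M5 receptor knockdown changes beyond the effect of the control virus. Pick1 fell by 0.30 on the log2(FPKM + 1) scale (SE 0.061, 95% interval -0.45 to -0.15, limma adjusted p = 0.0447), and its mean FPKM fell by 19.3%. It was the only one of the 7 members called, and limma called 5.65% of the 14514 genes tested, 400 higher and 420 lower. In bulk tissue, fewer cells of a type and less RNA per cell cannot be told apart. The other 6 had log2 differences between -0.01 for Csnk2a2 and 0.09 for Gopc, with adjusted p of 0.62 or more. Their intervals reach from -0.22 to 0.33, so changes of that size remained possible. Pick1 was also the only member whose groups did not overlap, against 32.1% of all genes, and the median difference of the 7 was 0.027 beside 0.025 over all genes. The Pick1 call was lost in 8 of 14 alternatives, among them centring on the median (adjusted p = 0.0836) and removal of the GC trend (0.122). It was also lost without M5 replicate 1 (adjusted p = 0.129) or 2 (0.152), or without MNC replicate 1 (0.0881), 2 (0.129) or 3 (0.149), and the difference stayed between -0.34 and -0.26 in all 14. Without M5 replicate 3 it was -0.33 (adjusted p = 0.0429), while Dpy19l2 was at 0.12 (adjusted p = 0.175), Spata16 at 0.11 (0.156), and Csnk2a2 turned to 0.07.

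The comparisons of M1 and M3 with MNC ask the same for the other receptors. None of the 7 members was called in either one by limma, and none of the 7 in M1 against MNC had an unadjusted p under 0.05. Over all genes limma called 0% in M1 against MNC, where 862 genes had an unadjusted p under 0.05, and 0.00689% in M3 against MNC, which is 1 gene. Differences in M1 lay between -0.04 for Gopc and 0.07 for Dpy19l2, with intervals from -0.24 to 0.17. Dpy19l2, Agfg1 and Csnk2a2 did not overlap MNC there, 3 of 7 members beside 12.0% of all genes, but the differences were small. In M3, Dpy19l2 (0.15, SE 0.057) had an unadjusted p of 0.0413 and an adjusted p of 0.518, and Spaca1 differed by 0.14 (SE 0.077, adjusted p = 0.554). Dpy19l2 and Csnk2a2 did not overlap between M3 and MNC, 2 of 7 members beside 17.1% of all genes. Pick1 in M3 differed by -0.12 (SE 0.105, adjusted p = 0.654), and by -0.01 without M3 replicate 3.

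Direct comparisons of the knockdowns ask whether M5 differs from M1 and from M3. Pick1 was lower in M5 than in M1 by a log2 difference of -0.31 (SE 0.057, 95% interval -0.45 to -0.17, limma adjusted p = 0.0317), and it was the 1 member of 7 called, beside 6.75% of all genes. Its groups did not overlap, nor did those of Gopc, which was higher in M5 by 0.13 (adjusted p = 0.36), and 33.7% of all genes had such separated groups. The Pick1 call was lost in 8 of 14 alternatives, among them centring (adjusted p = 0.0607), removal of the GC trend (0.0666), and fits without M5 replicate 1 (adjusted p = 0.0815) or 2 (0.0996), or without M1 replicate 1 (0.145), 2 (0.0876) or 3 (0.12). Between M5 and M3 no member was called by limma, none had an unadjusted p under 0.05, and 0.0138% of all genes were called while 2077 had an unadjusted p under 0.05. Pick1 differed by -0.18 there (SE 0.11, 95% interval -0.44 to 0.08, adjusted p = 0.451), and by -0.29 without M3 replicate 3 (adjusted p = 0.118). No member had separated groups between M5 and M3, beside 22.9% of all genes. M5 against MNC and M5 against M1 share the M5 libraries, and the comparisons with MNC share its libraries, so none is independent of the others.

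The comparison of MNC with Con asks how testes given the control virus differ from Con. Dpy19l2 fell by 0.23 on the log2 scale (SE 0.053, 95% interval -0.36 to -0.11, limma adjusted p = 0.0333), and its mean FPKM fell by 15.2%. It was the 1 member of 7 called, beside 20.4% of all genes, 1166 higher and 1801 lower in MNC. When each library was centred on its median, the genes called were 1449 higher and 420 lower, and with a trend with GC content removed they were 1540 higher and 708 lower. Gopc (-0.23, adjusted p = 0.0972), Csnk2a2 (-0.11, 0.0911), Agfg1 (-0.11, 0.116) and Spata16 (-0.09, 0.124) missed the threshold. An unadjusted p under 0.05 was found for 5 of 7 members and for 40.1% of all genes. Pick1 differed by -0.05 (adjusted p = 0.505) and Spaca1 by 0.10 (adjusted p = 0.438). In all, 5 of 7 members had groups that did not overlap, beside 46.5% of all genes, and the median of -0.11 over the 7 stood beside -0.095 over all genes. The Dpy19l2 call was lost in 8 of 14 alternatives, among them no filter (adjusted p = 0.0516), centring (0.0669) and removal of the GC trend (0.0986). It was also lost without MNC replicate 2 (adjusted p = 0.0877) or 3 (0.0721) and without Con replicate 1 (0.114) or 2 (0.0937), and its difference stayed below 0 in all 14, at -0.14 after centring and -0.12 without the GC trend.

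**Figure D2:**
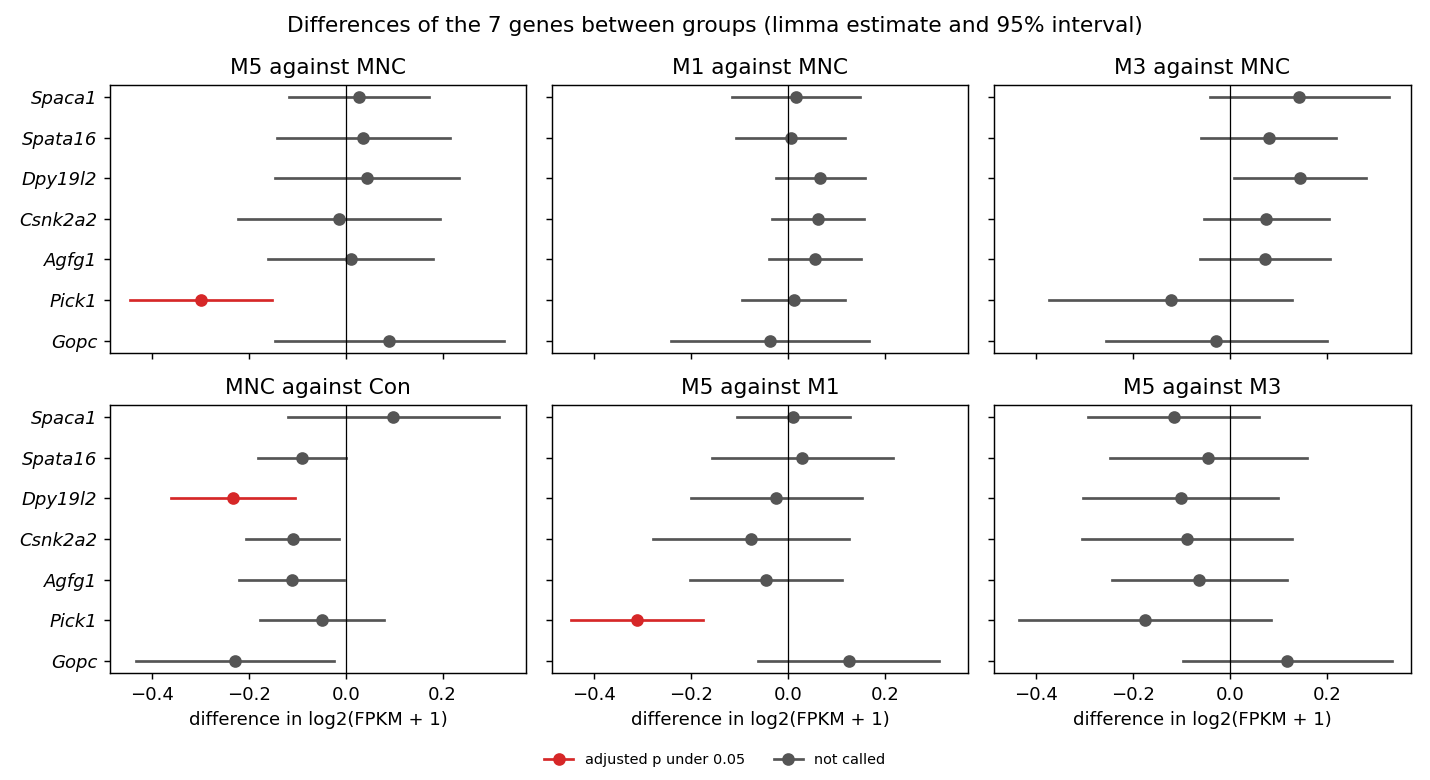
Log2 difference in FPKM + 1 (x axis) of the 7 member genes (y axis) in the 6 comparisons, one panel each, as limma estimates with 95% intervals, with the called members in red and the vertical line at 0. Pick1 is called at -0.30 in M5 against MNC and at -0.31 in M5 against M1, and Dpy19l2 at -0.23 in MNC against Con.

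The markers of other stages moved in the same comparisons, and their part in the member results was not tested. The summed FPKM of 8 spermatocyte markers was 440 to 470 in Con, 342 to 367 in MNC, 354 to 386 in M1, 370 to 446 in M3 and 448 to 475 in M5. In M5 against MNC limma called 2 of the 8 higher, Hormad1 (log2 difference 0.70, adjusted p = 0.00634) and Sycp1 (0.79, adjusted p = 0.0125), both genes of meiosis. In MNC against Con 5 of 8 were called lower. Over all genes 5.65% were called in M5 against MNC and 20.4% in MNC against Con. Their highest M3 library was replicate 3, at 446, the library in which Pick1 was at the level of M5. Of 10 markers of elongating spermatids, the tail gene Odf1 was called lower in M5 than in MNC (-0.51, limma adjusted p = 0.0337), and in 4 of 14 alternatives. No other was called, but Tnp2 differed by -0.70 (adjusted p = 0.0584). An unadjusted p under 0.05 was found for 4 of the 10 and for 24.9% of all genes. Differences were above 0 for 5 of the 10 and below 0 for 5. Between MNC and Con, 4 were called higher in MNC. Of 5 red blood cell markers tested, 3 were called higher in M5 than in MNC, and their sum was 148 to 491 FPKM in M5 and 21.8 to 35.4 in MNC, with Hba-a2, Hbb-bs and Hbb-bt at 0 in at least 1 library. Of 7 Sertoli, 6 Leydig, 4 macrophage and 5 spermatogonial markers tested, none was called by limma in M5 against MNC, and 2 had an unadjusted p under 0.05, Wt1 of the Sertoli and Uchl1 of the spermatogonial list (both 0.0332). The 6 epididymis markers summed to 14.3 to 34.2 FPKM in Con and to 0.11 to 0.26 in MNC, so the Con tissue held transcripts that MNC nearly lacked, and in M3 the sum was 1.1 to 21.2. Of the 6 only Crisp1 passed the filter, at 32.26, 2.86 and 12.15 FPKM in Con and 0.03 in each MNC library. Lcn5 and Lcn8 were at 0 in Con replicates 1 and 3.

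Other genes of acrosome formation, 24 in all and tested in full, moved in both directions. In M5 against MNC 2 were called higher and 1 lower, beside 5.65% of all genes called. The median was -0.038 beside 0.025 over all genes. An unadjusted limma p under 0.05 was found for 11 of the 24 and for 24.9% of all genes. Hsp90b1, a chaperone of the endoplasmic reticulum, was at 296 ± 12.9 FPKM in M5 and 211 ± 11.2 in MNC (SD, n = 3, log2 difference 0.49, adjusted p = 0.0181). Sec23ip, which acts in traffic out of the endoplasmic reticulum, was at 89.2 ± 3.75 against 71.6 ± 2.36 FPKM (0.31, adjusted p = 0.0356). Actl9, an actin-like protein of the layer between acrosome and nucleus, was lower, at 197 ± 8.17 against 261 ± 10.1 FPKM (-0.40, adjusted p = 0.0218). In Con the means were 285 ± 9.19 FPKM for Hsp90b1, 77.2 ± 3.67 for Sec23ip and 186 ± 23.2 for Actl9. For all 3 the Con mean lay on the same side of MNC as the M5 mean. M5 was not tested against Con. None of the 3 was called without M5 replicate 1 or 2 or without MNC replicate 2 or 3, nor after centring, though their directions were the same in all 14 alternatives. In M5 against M1 the list had 2 genes called higher and 3 lower, among them Actl7a (-0.28, adjusted p = 0.0362), a partner of Actl9 in the same layer. Actl7a was called in 5 of 14 alternatives there.

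In MNC against Con the same list of 24 had 5 genes called higher and 5 lower, beside 20.4% of all genes called. Hsp90b1 fell from 285 to 211 ± 11.2 FPKM (-0.43, adjusted p = 0.0164), while Fam209 (0.38, adjusted p = 0.0175), Actl9 (0.49, adjusted p = 0.0254) and Actl7a (0.38, adjusted p = 0.0254) rose. FAM209 is a partner of DPY19L2 at the inner nuclear membrane, so 2 genes of the same structure were called in opposite directions, Dpy19l2 lower and Fam209 higher in MNC. The difference between the 2 was not itself tested. The count went to 0 without Con replicate 1 or without Con replicate 2.

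The Golgi and vesicle traffic list held 20 genes, and calls were made in 3 of the 6 comparisons. In M5 against MNC 2 were called higher, the small GTPase Rab2a (65.2 ± 1.74 against 50 ± 3.39 FPKM, 0.38, adjusted p = 0.0325) and the retromer subunit Vps35 (39.9 ± 1.14 against 31.6 ± 1.7 FPKM, 0.33, adjusted p = 0.0393). In Con Rab2a was at 59.2 ± 3.37 FPKM and Vps35 at 40.9 ± 2.56, so both means were also lower in MNC than in Con. M5 was not tested against Con. Of 14 alternatives, Rab2a was called in 6 and Vps35 in 5. In MNC against Con 8 of 20 were called lower and none higher, with a median of -0.213, while 20.4% of all genes were called, 1801 of 14514 lower, with a median of -0.095. The 4 with the lowest p were the clathrin heavy chain Cltc (-0.40, adjusted p = 0.0181), Vps35 (-0.36, adjusted p = 0.0244), the golgin Golga4 (-0.22, adjusted p = 0.0288) and the GTPase Arf1 (-0.23, adjusted p = 0.0339). That median stayed below 0 in all alternatives, but the count was 2 after centring and 0 without Con replicate 1 or 2. In M5 against M1 Rab2a (0.41, adjusted p = 0.011) and Cltc (0.26, adjusted p = 0.0449) were called higher, Rab2a in 9 of 14 alternatives and Cltc in 4 of 14.

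**Figure D3:**
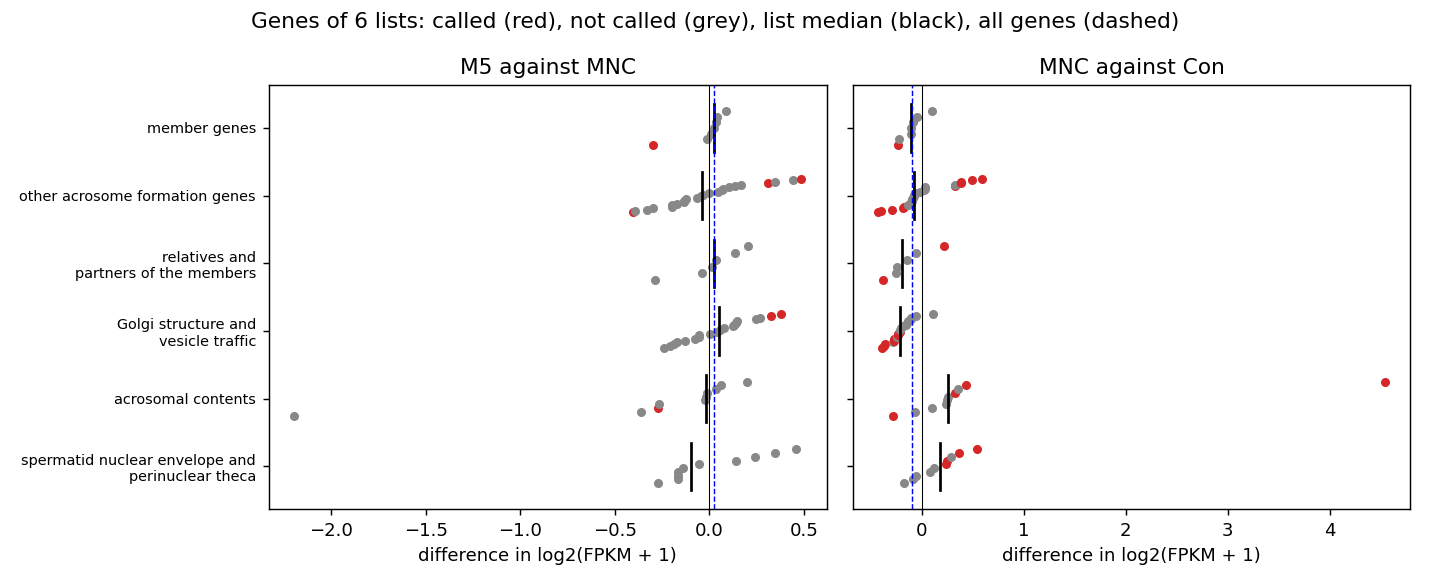
Log2 difference in FPKM + 1 (x axis) of each tested gene of the members and of 5 related lists (y axis), for M5 against MNC and for MNC against Con, with called genes in red, other genes in grey, the median of each list as a black bar and that of all genes as a dashed line. The Golgi list lies mostly left of 0 in MNC against Con (median -0.213), and the far points in the list of acrosomal contents are Zp3r, at 4.54 there and at -2.20, not called, in M5 against MNC.

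Of 10 genes for acrosomal contents, 1 was called lower in M5 than in MNC. This was Acr, the protease acrosin, at 130 ± 4.22 against 157 ± 2.19 FPKM (-0.27, adjusted p = 0.0363), and at 147 ± 2.96 FPKM in Con. In M5 against M1 both Acr (-0.27, adjusted p = 0.0438) and Acrv1 (-0.24, adjusted p = 0.0312) were called lower. Acr was called in 6 of 14 alternatives in M5 against MNC and in 5 of 14 in M5 against M1. Acrv1 was called in 6 of 14 in M5 against M1. In MNC against Con 3 were called higher and 1 lower, beside 20.4% of all genes called, with a median of 0.254 beside -0.095 over all genes. Zp3r, a protein of the acrosomal matrix, was between 0.08 and 0.34 FPKM in Con and at 7.55, 38.42 and 65.89 FPKM in MNC (4.54, adjusted p = 0.0195). Its spread inside the groups was wide, since M5 held 0.15, 35.4 and 4.6 FPKM. Spaca4 (0.44, adjusted p = 0.0175) and Acrv1 (0.32, adjusted p = 0.0311) were also called higher in MNC, and Pkdrej (-0.28, adjusted p = 0.0265) lower. Without Con replicate 1 no gene of the list was called.

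Of 10 genes of the spermatid nuclear envelope and perinuclear theca, the layer around the nucleus, none was called by limma in M5 against MNC and 4 had an unadjusted p under 0.05, as did 24.9% of all genes. The theca genes Cylc1 (0.46, unadjusted p = 0.00517, adjusted p = 0.064) and Cylc2 (0.35, unadjusted p = 0.0135, adjusted p = 0.102) had the largest differences. In MNC against Con 4 were called higher, Cylc2 (0.54, adjusted p = 0.0198), the envelope proteins Sun3 (0.24, adjusted p = 0.0298) and Spag4 (0.24, adjusted p = 0.0426), and the lamin Lmnb2 (0.37, adjusted p = 0.037). Over all genes 20.4% were called in that comparison. Spag4 was the 1 gene called in M5 against M1, lower by a log2 difference of -0.30 (adjusted p = 0.0295), and was called there in 6 of 14 alternatives. No gene of the 4 was called without MNC replicate 2 or without Con replicate 1 or 2.

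The 6 relatives and partners of the members gave 0 calls by limma in M5 against MNC, where 1 had an unadjusted p under 0.05. This was Csnk2b, the regulatory subunit of CK2, at 578 ± 50.1 FPKM in M5 and 704 ± 34.8 in MNC (-0.29, unadjusted p = 0.0117, adjusted p = 0.0956), and the other catalytic subunit Csnk2a1 at 9.96 ± 1.64 against 8.47 ± 1.01 (0.21, adjusted p = 0.426). In MNC against Con Csnk2b was called higher (0.22, adjusted p = 0.0367) and Agfg2, the relative of Agfg1, lower (-0.38, adjusted p = 0.0283). In M1 against MNC, M3 against MNC and M5 against M3 limma called no gene of these 5 lists, and 2, 5 and 15 of their 70 genes had an unadjusted p under 0.05, beside 5.94%, 9.43% and 14.3% of all genes.

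Across the 15 libraries some members varied together, which is given as a description because the libraries share groups and tissue composition. Pearson's r of log2(FPKM + 1) was 0.86 between Agfg1 and Csnk2a2, 0.83 between Agfg1 and Dpy19l2, and 0.78 between Dpy19l2 and Spata16. After each group's mean was subtracted these were 0.79, 0.71 and 0.79. These 4 genes are those with their lowest value in M5 replicate 3. For Pick1, r with the other members lay between -0.14 and 0.27 over the 15 libraries, and between -0.36 with Gopc and 0.49 with Spaca1 after group means were subtracted. Gopc and Spaca1 had an r of -0.57, and of -0.34 after that step. The genes most like each member, by r over the 15 libraries among 13612 named genes, were Mkrn1 (0.943) for Dpy19l2, Mael (0.918) for Spata16, Rbm5 (0.959) for Gopc and Dtx3 (0.969) for Pick1. For Agfg1 the closest was Drg1 (0.927), for Spaca1 Creld2 (0.902) and for Csnk2a2 Ralgps2 (0.949). The next for Pick1 were Chmp1a (0.965) and Tmem89 (0.958), for Dpy19l2 Med28 (0.929) and Ccnb2 (0.925), and for Gopc Mtf2 (0.928) and Rexo2 (0.921). Spata16 was followed by Mkrn1 (0.892) and Tmem97 (0.875), so Mkrn1 was near the top for 2 members. The next for Agfg1 were Adam1b (0.909) and Pde1c (0.878), for Spaca1 Chrna5 (0.9) and Mmadhc (0.873), and for Csnk2a2 Phf7 (0.902) and Cct6b (0.897).

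**Figure D4:**
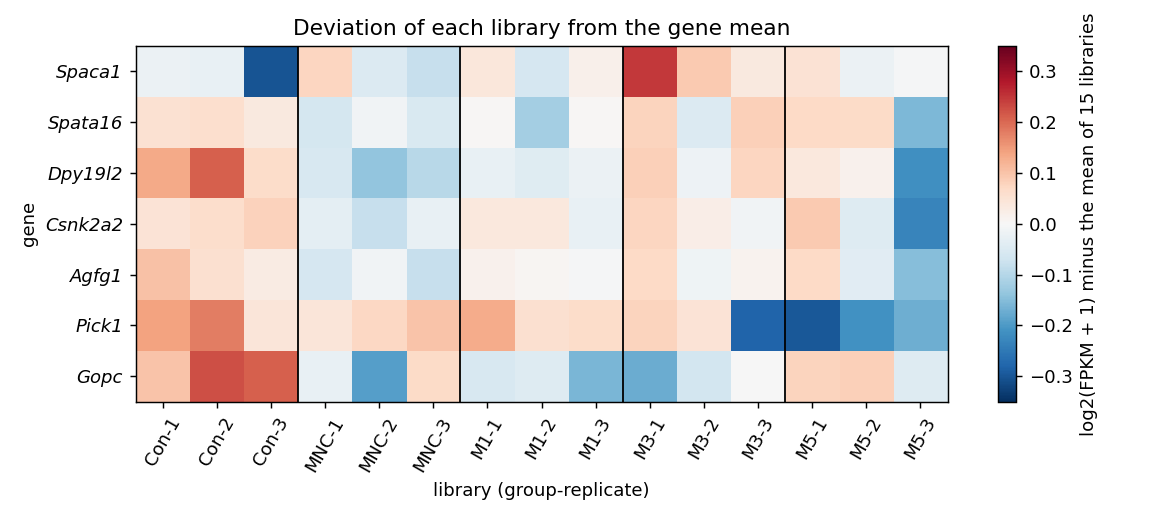
Log2(FPKM + 1) of each member gene (rows) in each library (columns) as the difference from its mean over the 15 libraries, shown by colour. Pick1 is low in the 3 M5 libraries and in M3 replicate 3, and Dpy19l2, Spata16, Agfg1 and Csnk2a2 are low in M5 replicate 3.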

How the data were processed

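The authors deposited 1 table of FPKM values with 2 decimals for 15 testis libraries. Per the study's methods, libraries of oligo(dT)-selected RNA were sequenced by Illumina chemistry and mapped with SOAPaligner, and the submitters' processing notes name the build mm10. Of 23510 row IDs, 21143 (89.9%) matched RefSeq GRCm38.p6 and 2208 were BGI_novel IDs without a name. The sample titles gave each group and number and name testis, although the extraction text speaks of sperm. For M5 replicate 2 the description points to another M5 column, so M5 replicates 1 and 2 rest on their titles.

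Values were analysed as log2(FPKM + 1), which understates changes of low genes. Rows with a mean of 1 FPKM or more (14514) were fitted with limma 3.58.1 (lmFit, eBayes with trend, R 4.3.3), each fit holding the 2 groups compared. The study's own test needs counts, which were not used here. Benjamini-Hochberg adjustment ran over all rows fitted, tests were two-sided, and genes were called at an adjusted p under 0.05. The fit was tested on simulated data. Other tools were Python 3.11.15, pandas 2.3.3, numpy 2.4.6 and scipy 1.17.1.

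The members and lists were chosen with earlier results of these data known. Named were all members, up to 4 called genes with the lowest p of each list and comparison or, with none called, the 2 with the largest difference, and the 3 genes most like each member. Text on M1 and M3, on M5 against M3 and on cell type lists gives counts in place of most such names. Alternatives were a pseudocount of 0.1, no filter, a filter of 5 FPKM, centring, quantile normalization, 1 fit of all groups, a replicate block and each library left out. Removing a trend with GC content (13365 rows) and the check of M3 replicate 3 were chosen after seeing the data. Depth is unknown, so no counting intervals are given.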

Additional observations from a re-analysis of the deposited data

Results flagged for a closer look

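Pick1 differed between the M5 and M1 knockdowns in a direct test, with a log2 difference of -0.312 (SE 0.057, limma adjusted p = 0.0317) and lower values in 3 of 3 M5 libraries. It was called in 6 of the 14 alternatives, with a range of -0.38 to -0.28.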

How the results depend on the processing

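The called differences kept their sign in all alternatives. Pick1 in M5 against MNC was called in 6 of 14, with adjusted p from 0.0284 to 0.152, and Dpy19l2 in MNC against Con in 6 of 14 (-0.30 to -0.12). The count of members called went from 1 to 0 after centring, with the replicate block and with the GC trend removed, in M5 against MNC, M5 against M1 and MNC against Con, and in the last also without a filter, while quantile normalization gave 2 there, adding Spata16. Leaving out 1 library gave 0 to 1. Centring turned Spata16 (-0.001), Agfg1 (-0.027) and Spaca1 (-0.010) in M5 against MNC, Gopc in M3 against MNC (0.038), Pick1 in MNC against Con (0.041), and Spata16 (-0.039) and Spaca1 (-0.059) in M5 against M1. Removing the GC trend turned Dpy19l2 (-0.111), Gopc (-0.039) and Agfg1 (-0.139) in M5 against MNC, Pick1 in MNC against Con (0.014), and Spata16 (-0.011) and Spaca1 (-0.025) in M5 against M1. Quantile normalization turned Spata16 in M1 against MNC (-0.018), Gopc in M3 against MNC (0.032) and Spaca1 in MNC against Con (-0.028). None of these was called, and the causes were not tested.

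Leaving out 1 library at a time gave, in M5 against MNC, -0.002 to 0.123 for Dpy19l2, -0.002 to 0.112 for Spata16, -0.044 to 0.065 for Agfg1, -0.004 to 0.074 for Spaca1 and -0.09 to 0.071 for Csnk2a2. In M1 against MNC it gave -0.015 to 0.047 for Spata16, -0.107 to 0.022 for Gopc, -0.011 to 0.027 for Pick1 and -0.015 to 0.063 for Spaca1, and in M3 against MNC -0.099 to 0.03 for Gopc. In M5 against M1 it gave -0.07 to 0.056 for Dpy19l2, -0.011 to 0.106 for Spata16, -0.1 to 0.009 for Agfg1, -0.018 to 0.031 for Spaca1 and -0.153 to 0.008 for Csnk2a2, and in M5 against M3 -0.088 to 0.031 for Spata16.

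The count over all genes moved more. From 820 in M5 against MNC it went to 464 without a filter, 182 after centring, 2424 with all groups, 106 with the GC trend removed and 35 to 946 without 1 library. From 980 in M5 against M1 it went to 601, 252, 1380, 118 and 56 to 1690. From 2967 in MNC against Con it went to 1632 without a filter, 1869 after centring and 8 to 2497 without 1 library. It was 0 to 12 in M1 against MNC, 0 to 14 in M3 against MNC and 0 to 188 in M5 against M3 without 1 library, and at most 14 under the other settings of those 3.

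Same-numbered libraries did not deviate together (r from -0.4 to 0.18 over 18 pairs, 2 over 0.1), so the numbers were not taken as pairs. With the replicate block 14, 39 and 10 genes were called in M5 against MNC, M5 against M1 and MNC against Con, and Pick1 (adjusted p = 0.118 and 0.139) and Dpy19l2 (0.078) were not. At most 2 of 3 libraries correlated best with their own number. Absolute depth is unknown, which limits the lowest genes.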
